A study of Rattus norvegicus with 24 samples.

Results

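The complement system is a cascade of proteins that tags targets for removal and recruits immune cells. In its classical pathway, C1q binds a target and activates the proteases C1r and C1s, which cleave C4 and C2 to form the enzyme that cleaves C3, and the inhibitor encoded by Serping1 shuts off C1r and C1s. In the brain, C1q is made mainly by microglia, and C1q and C3 are known for marking synapses that microglia then engulf. Here the 9 gene symbols C1qa, C1qb, C1qc, C1s, C2, C3, C4a, C4b and Serping1 were followed in bulk RNA of the nucleus accumbens (NAc), a striatal region of reward processing, to ask whether LPS, heroin or their combination changed them. The genes were chosen by name. The table of 32545 genes holds 11 genes under these 9 symbols, since C2 and C4a each have 2 entries.

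All rats were male Sprague Dawley rats, 8 weeks old on arrival, and each of the 24 libraries came from the whole NAc, core and shell, of 1 rat. In the injection experiment, pair-housed rats received 5 injections of LPS, a bacterial cell wall component that sets off an immune response, at 250 µg/kg, or saline. After a gap of several days, they received daily injections of heroin rising from 1 to 5 mg/kg, or saline. They were killed within an hour of the end of a short locomotor test that followed the last of these injections. LPS had thus ended days before the tissue was taken. The study chose this timing to look at lasting and not immediate effects of LPS. The 4 groups, of 4 libraries each, are named by the first and the second treatment: Saline-Saline, Saline-Heroin, LPS-Saline and LPS-Heroin. In the self-administration experiment, rats housed alone with a jugular catheter on a reversed light cycle took heroin (Heroin-SA, 4 libraries) at 0.075 mg/kg per infusion, or saline (Saline-SA, 4 libraries), in 6 h sessions on 10 days, and were killed after the last session. Neither drug targeted a cell type, and the amount of heroin taken in Heroin-SA was set by the rat.

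Libraries held 12312878 to 18850240 reads on genes. Markers of striatal medium spiny neurons were present in every group, with summed levels of 1116 to 3052 FPKM (a read level corrected for library size and for the length of the gene) over 8 genes. Reads on mitochondrial genes made up 6.82 to 9.10% in the injection experiment and 10.0 to 15.9% in the self-administration experiment. Saline-Saline replicate 1 stood apart in choroid plexus genes, with Ttr at 318 FPKM. Of the 6 genes of that list, 2 (Ttr and Kl) had a mean of at least 0.5 FPKM. Their summed level was 320.2 FPKM in this library, and LPS-Heroin replicate 4 followed at 24.6 FPKM. No pair of libraries held identical values. Changes below were fitted with limma on log2(FPKM + 0.1), a scale that understates changes of low genes. A gene was called changed (a DEG) at an unadjusted p of at most 0.05 and a change of at least 1.3-fold. In bulk tissue, fewer cells of a type and less RNA per cell cannot be told apart.

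The 3 chains of C1q are neighbours on the minus strand of rat chromosome 5, at chr5:155261250-155264143 (C1qa), chr5:155255005-155258392 (C1qc) and chr5:155246447-155252003 (C1qb) in build rn6. RefSeq promoter sequences of build GRCr8 matched 5 of the 9 symbols (C1qa, C1qb, C3, C4a and C4b). The 250 bases before the start of C1qa (chr5:154419934-154420183) and C1qb (chr5:154407828-154408077), both on the minus strand, are shown because these chains gave the highest Pearson's r of any pair of members over the 24 libraries, although C1s and Serping1 were closer by Spearman's rho.
C1qa: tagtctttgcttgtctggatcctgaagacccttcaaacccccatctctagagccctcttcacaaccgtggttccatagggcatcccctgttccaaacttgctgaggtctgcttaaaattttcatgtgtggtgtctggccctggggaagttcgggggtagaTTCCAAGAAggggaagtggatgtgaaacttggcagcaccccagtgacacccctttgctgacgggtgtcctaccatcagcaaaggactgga
C1qb: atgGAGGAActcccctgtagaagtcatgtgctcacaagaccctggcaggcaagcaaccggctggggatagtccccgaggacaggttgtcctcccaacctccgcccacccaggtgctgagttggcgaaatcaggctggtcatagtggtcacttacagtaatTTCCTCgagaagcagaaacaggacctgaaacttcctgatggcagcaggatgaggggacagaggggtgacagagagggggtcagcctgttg
Capitals mark matches, on either strand, to the letters of binding motifs of immune transcription factors. C1qb held GAGGAA, the motif of the myeloid factor PU.1, at 2 places, and 23.3% of 33469 rat promoters held it. This motif was also found in C4b. C1qa held TTCNNNGAA, a STAT motif, which occurred in 7.67% of promoters. The motif of C/EBP (TTGCNNAA, 9.22% of promoters) was found in C3 and in none of the other matched members. A match is a string of letters and not a measured binding site.

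The C4 genes are shown next because they are known as near copies of each other and their annotated spans overlap, so their values are reported as uncertain. Their transcript sequences were not compared here, and the bases shown lie before the start of the genes. The upstream bases of C4a (chr20:4010107-4010356) and C4b (chr20:4201729-4201978), on the plus strand of GRCr8, were identical at 226 of 245 aligned bases (92.2%). Capitals mark differing and unaligned bases.
C4a: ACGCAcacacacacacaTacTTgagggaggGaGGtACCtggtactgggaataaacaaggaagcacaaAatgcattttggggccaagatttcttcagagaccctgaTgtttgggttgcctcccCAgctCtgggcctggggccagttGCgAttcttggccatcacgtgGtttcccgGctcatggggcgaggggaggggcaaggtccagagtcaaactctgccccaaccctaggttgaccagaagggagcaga
C4b: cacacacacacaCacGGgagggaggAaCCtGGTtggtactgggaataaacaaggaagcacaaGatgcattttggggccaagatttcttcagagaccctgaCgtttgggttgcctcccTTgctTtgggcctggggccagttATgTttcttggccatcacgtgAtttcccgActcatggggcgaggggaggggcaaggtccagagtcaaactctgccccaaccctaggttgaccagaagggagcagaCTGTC
In the deposited rn6 annotation, C4b (ENSRNOG00000030729, chr20:4302344-4316715) lies almost wholly within the span of the first C4a gene (ENSRNOG00000000443, chr20:4302347-4508214), and the second C4a gene (ENSRNOG00000047657) lies at chr20:2651599-2678141.

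C1q was by far the most abundant member of the classical pathway in the NAc. Averaged over 24 libraries, C1qa stood at 48.3 FPKM, C1qb at 32.3 and C1qc at 22.9, whereas Serping1 stood at 3.09, C3 at 2.44, the first C4a gene at 1.60, C1s at 1.24 and the first C2 gene (ENSRNOG00000051235) at 0.798. FPKM is scaled by gene length, so these levels can be set side by side. The levels of C4a and C2 are less certain, since the spans of these genes overlap other genes. These 8 genes had a mean of at least 0.5 FPKM and were tested. The remaining 3 were not: the second C2 gene (ENSRNOG00000051158, mean 0.154 FPKM), the second C4a gene (0.150) and C4b (0.164). Reads behind a value ran from 256 to 949 per library for the C1q chains and from 59 to 433 for C3. They were fewer for the others, down to 5 to 73 for C2.

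**Figure D1:**
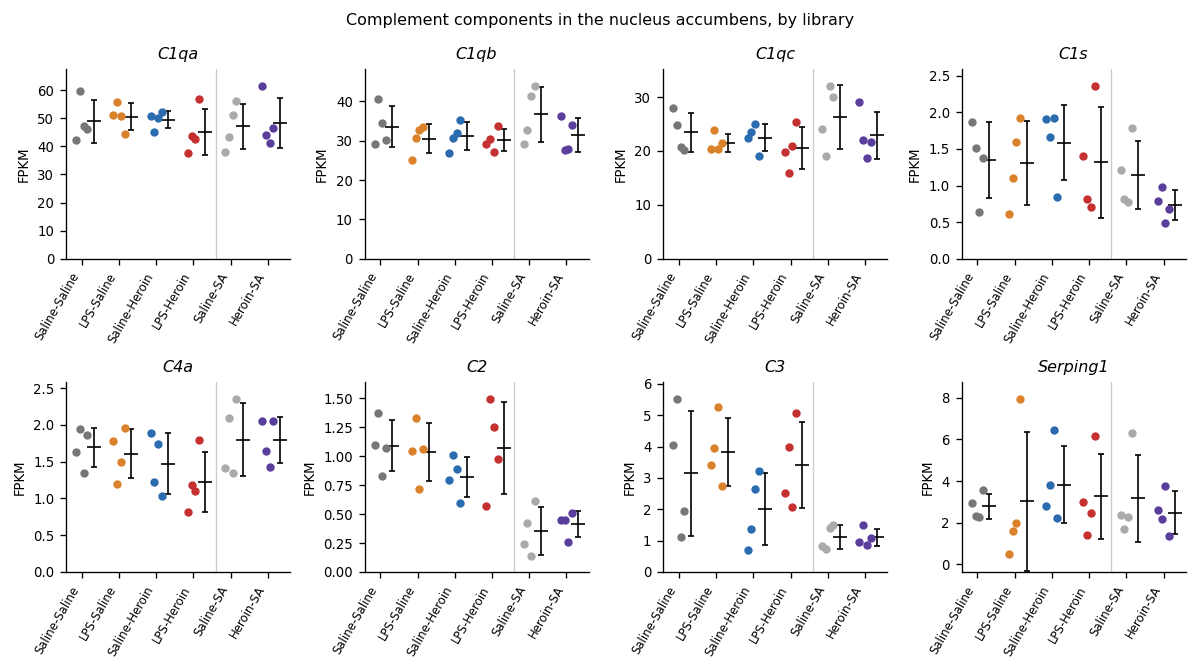
Level (FPKM, y axis) of the 8 tested complement components in each library (points) of the 6 groups (x axis), with the group mean and SD (black bars, n = 4); the grey line parts the injection experiment from the self-administration experiment. C1qa ran from 37.7 to 61.5 FPKM with all groups overlapping, whereas C2 and C3 were lower in the self-administration experiment, and Serping1 held single high libraries.

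The C1q chains, which assemble together into the C1q molecule, overlapped between treatment groups. C1qa was 42.2, 59.8, 47.3 and 46.3 FPKM in Saline-Saline, and 51.3, 56.0, 50.7 and 44.4 in LPS-Saline. It was 50.9, 45.0, 50.2 and 52.1 FPKM in Saline-Heroin, and 37.7, 43.8, 42.5 and 56.7 in LPS-Heroin. It was 38.0, 43.3, 51.1 and 56.0 FPKM in Saline-SA, and 61.5, 43.9, 41.3 and 46.5 in Heroin-SA. All 6 groups overlapped, with the highest library in Heroin-SA and the lowest in LPS-Heroin. Group means of C1qb lay between 30.1 ± 2.81 FPKM (SD, n = 4) in LPS-Heroin and 36.8 ± 6.98 (SD, n = 4) in Saline-SA. Those of C1qc lay between 20.6 ± 3.90 (SD, n = 4) and 26.3 ± 5.92 FPKM (SD, n = 4) in the same 2 groups.

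The proportion of the chains varied between libraries about as much as their sum. The ratio of C1qa to C1qb was 1.51 ± 0.203 (SD, n = 24) and ran from 1.24 to 2.04. That of C1qa to C1qc was 2.15 ± 0.324 (1.51 to 2.74), and that of C1qb to C1qc 1.43 ± 0.220 (1.04 to 1.90). Summed over the chains, C1q was 103 ± 12.7 FPKM (SD, n = 24) and ran from 86.7 to 130.0. The C1qa to C1qb ratio was lowest in Saline-SA, at 1.28 ± 0.0375 (SD, n = 4). Every Saline-SA library was below every library of Saline-Saline, LPS-Saline, Saline-Heroin and Heroin-SA (1.37 to 1.69 in Heroin-SA). LPS-Heroin (1.29 to 1.68) overlapped Saline-SA. This ratio was picked out after its values were seen and was not tested.

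None of the members was called in any of the 6 comparisons between treatment groups. In LPS-Saline against Saline-Saline, 0 of 8 members were called, where 2.36% of 15119 genes were. In Saline-Heroin against Saline-Saline the count was 0 of 8 against 3.07% of genes, and in LPS-Heroin against Saline-Saline 0 of 8 against 5.42%. For LPS-Heroin against LPS-Saline it was 0 of 8 against 2.29%, and against Saline-Heroin 0 of 8 against 2.2%. In Heroin-SA against Saline-SA, C2 fell below the filter and 0 of 7 members were called, where 5.44% of genes were. With 8 members or fewer, a count of 0 lies close to these backgrounds. None of the 47 tests behind these counts reached an unadjusted p of 0.05 in limma, the smallest being 0.0939, and 0 had an adjusted p under 0.05. By limma-voom on recovered reads, 2 of these comparisons had 1 member called, as given below for C3 and C4a.

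The libraries of the 2 groups overlapped in all 6 comparisons for each of the 11 genes. Over all genes tested, groups did not overlap in 4.11, 3.39, 6.86, 2.58, 2.37 and 6.8% in the order given above. When the 6 groups were ranked by mean for each of the 8 members, 40 pairs of neighbours were compared. In 1 pair the libraries did not overlap (C2, Saline-Heroin above Heroin-SA; exact two-sided permutation p = 0.0286, the lowest value open to 4 against 4, and 0.996 after Benjamini-Hochberg adjustment). The C2 pair crosses the 2 experiments, whose saline groups did not overlap in 28.3% of genes, and the share for this pair itself was not computed. The libraries of all other neighbours overlapped. Neighbours in rank are by choice the least different groups, and 1 pair alone at the lowest p cannot pass an adjustment over 40 pairs.

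How much change could have been missed differed among members. For the C1q chains, the 18 log2 fold changes lay between -0.22 and 0.06, and their 95% intervals reached from -0.60 to 0.38. A change of C1qa of more than 1.30-fold upward thus lay outside every interval of these 6 comparisons. For LPS-Saline against Saline-Saline, the log2 fold change of C1qa was 0.06 (95% interval -0.20 to 0.31). Serping1 was measured far less tightly, with intervals reaching from -1.94 to 2.17, and C3 with intervals from -1.89 to 1.91. For these genes the data allow large changes in either direction.

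**Figure D2:**
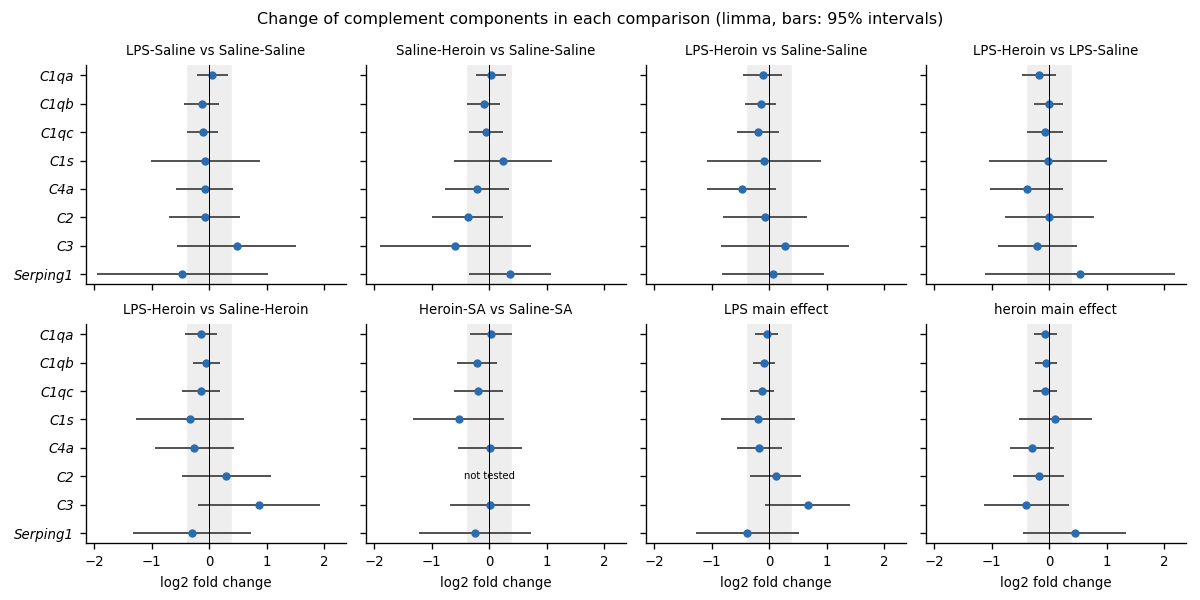
Log2 fold change (x axis, points) with its 95% interval (bars) of 8 complement components (y axis) in the 6 comparisons and in the LPS and heroin main effects; the grey band marks changes under 1.3-fold. The intervals of the C1q chains are narrow and lie around 0, those of Serping1 and C3 are wide, and C3 against LPS comes nearest to leaving 0, at 0.67 (-0.05 to 1.39).

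C1s, the protease that cleaves C4 and C2, varied within groups as much as between them. It ran from 0.607 to 1.93 FPKM in LPS-Saline and from 0.706 to 2.36 FPKM in LPS-Heroin. Its values were 1.21, 0.816, 0.773 and 1.78 FPKM in Saline-SA and 0.793, 0.984, 0.493 and 0.683 in Heroin-SA. Heroin-SA held the lowest library of the study and no library above 0.984, but it overlapped Saline-SA (log2 fold change -0.53, 95% interval -1.31 to 0.24, unadjusted p = 0.156 in limma). C1s had 20 to 112 reads per library.

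C4, the substrate of C1s, was measured mostly through the first C4a gene. That gene held 84.0% of the reads counted on the 3 C4 genes over all libraries. The share fell to 58.9% in 1 LPS-Heroin library, and how the counting assigned reads among these genes was not tested. The first C4a gene was 1.63, 1.95, 1.35 and 1.86 FPKM in Saline-Saline, and 0.809, 1.19, 1.11 and 1.79 in LPS-Heroin. Of the LPS-Heroin libraries, 3 lay below every Saline-Saline library, and replicate 4 lay among them. The log2 fold change was -0.48 (95% interval -1.06 to 0.11, unadjusted p = 0.0971, adjusted p = 0.548 in limma). It was -0.67 without LPS-Heroin replicate 4 (unadjusted p = 0.0239 in limma) and -0.51 by limma-voom (unadjusted p = 0.0452). Of all settings only these passed the call. In the same comparison all 5 cortical glutamatergic genes were called higher (median log2 fold change 1.13), with summed levels of 89.2 to 270.0 FPKM in Saline-Saline and 346 to 437 in LPS-Heroin. Of 5 tested red blood cell genes, 4 were called higher (median 0.62), with summed levels of 408 to 598 FPKM in Saline-Saline and 579 to 851 in LPS-Heroin. The part of these cells in the C4a values was not tested.

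Summed over the 3 C4 genes, the level was 2.02 ± 0.183 FPKM (SD, n = 4) in Saline-Saline and 1.60 ± 0.511 (SD, n = 4) in LPS-Heroin. The second C4a gene and C4b each had few reads. The second C4a gene had 0 to 38 reads per library and was listed at 0 in 2 Heroin-SA libraries, whereas other Heroin-SA libraries had 8 and 26. C4b ran from 2 to 26 reads and overlapped in all groups.

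C3, on which all complement pathways converge, varied the most between libraries next to Serping1. It was 4.05, 5.51, 1.11 and 1.93 FPKM in Saline-Saline and 3.40, 3.94, 5.28 and 2.73 in LPS-Saline. It was 0.712, 1.39, 2.66 and 3.22 FPKM in Saline-Heroin and 2.53, 3.99, 2.08 and 5.08 in LPS-Heroin. The 8 libraries of rats given LPS ran from 2.08 to 5.28 FPKM, whereas those of rats given saline in place of LPS ran from 0.712 to 5.51, so the groups overlapped. Of the libraries without LPS, 4 lay below the lowest library with LPS, and the highest library of all was also without LPS. This cut was set by the values themselves and was not tested.

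The LPS main effect, which averages over heroin, gave a log2 fold change of 0.67 for C3 (95% interval -0.05 to 1.39, unadjusted p = 0.0657, adjusted p = 0.739 in limma), and 0 of 8 members were called against 1.77% of genes. C3 passed the call without Saline-Saline replicate 1 (0.78), without Saline-Saline replicate 2 (0.84) or without Saline-Heroin replicate 4 (0.79). It also passed when all 24 libraries shared a fit (0.67, unadjusted p = 0.0442 in limma) and by limma-voom (0.70, unadjusted p = 0.0462). C3 did not pass with any other library left out. Nor did it pass with a pseudocount of 1, no filter, quantile normalization or a replicate block. In LPS-Heroin against Saline-Heroin, C3 stood at 0.86 (95% interval -0.18 to 1.91, unadjusted p = 0.0939 in limma). It was 1.15 without Saline-Heroin replicate 4 and 0.99 by limma-voom, and of all settings only these passed the call. The direction was positive in every setting and with every library left out, and no adjusted p was under 0.05.

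C2, which joins C4b in the C3 convertase, had 5 to 73 reads per library. Its first gene overlaps the second C2 gene and Cfb, which encodes factor B and was listed at 0 in every library, so reads of these genes cannot be told apart with confidence. In LPS-Saline the second C2 gene had 14, 7, 18 and 20 reads, against 4, 8, 10 and 3 in Saline-Saline, and the groups overlapped. Only without the filter on low values was it fitted, and then it was called (log2 fold change 0.89, unadjusted p = 0.0369 in limma). The first C2 gene in the same comparison gave -0.08 (95% interval -0.68 to 0.52).

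Serping1, the C1 inhibitor, had the widest spread within groups of the 8 members, with an SD of 0.87 on the log2 scale, above that of 89.2% of 2169 genes of like level. The C1q chains and C3 were also more variable within groups than most genes of like level, above 84.5% for C1qa, 80.8% for C1qb, 86.1% for C1qc and 82.4% for C3. Serping1 was 0.503, 1.61, 2.01 and 7.96 FPKM in LPS-Saline and 2.82, 3.81, 6.44 and 2.24 in Saline-Heroin. In LPS-Saline the highest library was thus 15.8 times the lowest, and both extremes of the whole study lay in this group. Against Saline-Saline (2.28 to 3.57 FPKM), the log2 fold change was -0.47 (95% interval -1.94 to 1.01, unadjusted p = 0.490 in limma), although the mean FPKM was higher in LPS-Saline (3.02 against 2.78). Without LPS-Saline replicate 4 it was -1.13 (unadjusted p = 0.0296) and was called. In the self-administration experiment, Serping1 was 2.39, 1.71, 2.28 and 6.29 FPKM in Saline-SA and 2.61, 2.19, 3.78 and 1.34 in Heroin-SA, with 1 library far above the rest of its group.

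The heroin main effect left 0 of 8 members called against 2.45% of genes. Serping1 stood at 0.44 (95% interval -0.43 to 1.32) and the first C4a gene at -0.31 (-0.67 to 0.06, unadjusted p = 0.0985 in limma). Each was called when 1 library was left out, Serping1 without LPS-Saline replicate 4 (0.74) and C4a without LPS-Heroin replicate 4 (-0.39). The 7 fibroblast and mural cell genes had a median of 0.52 in this effect, with 0 called. In Saline-Heroin against Saline-Saline their median was 0.71 with 2 of 7 called higher, and their summed level was 52.8 to 84.2 FPKM against 41.2 to 70.9. In the heroin main effect 4 of 5 tested red blood cell genes and 2 of 5 cortical glutamatergic genes were also called higher (medians 0.66 and 0.58). The part of these cells in the Serping1 and C4a values was not tested.

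Whether the heroin effect depended on prior LPS was asked with the interaction term. No member was called (0 of 8, against 2.31% of genes), and the estimates ran from -0.26 for C1s to 0.38 for C3 (95% interval -1.10 to 1.87). Nor did the effect of self-administered heroin differ from that of injected heroin by the call (0 of 8 members, against 4.38% of genes). The estimates for this difference ran from -0.77 for C1s (95% interval -1.85 to 0.31) to 0.65 for C2 (-0.41 to 1.70). C2 passed the filter in this test only through the injection groups, as its mean was 0.385 FPKM in the self-administration experiment. Over these comparisons, main effects and differences together, none of 79 tests on members reached an unadjusted p of 0.05 in limma.

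The clearest separation among the members lay between the experiments and not between treatments. C2 was 0.826 to 1.37 FPKM in Saline-Saline and 0.140 to 0.612 FPKM in Saline-SA, without overlap. C3 was 0.749 to 1.49 FPKM in all 8 self-administration libraries, against 0.712 to 5.51 with a median of 2.98 FPKM in the injection experiment. The saline groups of both experiments were therefore compared, a choice made after these values were seen. In Saline-SA against Saline-Saline, 2 of 8 members were called (25%), and 22.7% of 15150 genes were called too, so the share of members is near that of all genes. C2 had a log2 fold change of -1.49 (95% interval -2.43 to -0.56, adjusted p = 0.0306 in limma) and its groups did not overlap, as in 28.3% of genes. C2 passed the filter here only through Saline-Saline (mean 1.09 FPKM). In Saline-SA its mean was 0.354 FPKM, from 5 to 24 reads per library. C3 had -1.23 (-2.30 to -0.16, adjusted p = 0.0922 in limma). Without Saline-Saline replicate 1, C3 was no longer called (-1.03), and the same held without Saline-Saline replicate 2 (-0.89), Saline-SA replicate 1 (-1.12) or Saline-SA replicate 2 (-1.08).

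Of the C1q chains in this comparison, C1qa gave -0.06 (interval -0.38 to 0.26), C1qb 0.12 (-0.22 to 0.47) and C1qc 0.15 (-0.24 to 0.54). No chain was called. The intervals of C1qb and C1qc reach past a 1.3-fold change, so a like level in both experiments was not shown. Whether the chains differed from C2 and C3 in this respect was not tested. Of 9 microglia genes, 0 were called higher and 1 lower, with a median log2 fold change of -0.06 and summed levels of 242 to 338 FPKM in Saline-Saline and 247 to 281 in Saline-SA. Lists of other cell types held more calls. Of 8 medium spiny neuron genes, 6 were called higher (median 0.61), with summed levels of 1116 to 2280 FPKM in Saline-Saline and 1763 to 3052 in Saline-SA. Of 6 oligodendrocyte genes, 4 were called lower (median -0.41), with summed levels of 4414 to 6843 FPKM and 4215 to 4783.

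Red blood cell genes were called higher for 3 of 5 tested, with summed levels of 408 to 598 FPKM in Saline-Saline and 597 to 4649 in Saline-SA. Endothelial genes were called higher for 2 of 5 tested (61.0 to 69.0 FPKM against 76.7 to 99.1), and fibroblast and mural cell genes for 3 of 7 (41.2 to 70.9 FPKM against 64.9 to 75.6). The median log2 fold change of the fibroblast and mural cell genes was only 0.05. Over all libraries of each experiment, Rgs5, Acta2 and Pdgfrb averaged higher in the self-administration experiment. Col1a1, Col1a2, Dcn and Lum averaged lower there. Of 7 astrocyte genes, 2 were called lower. The part of these cells in the C2 and C3 values was not tested. The experiments also differ in housing, light cycle, surgery, time of death and mitochondrial share, and these and the makeup of the tissue cannot be told apart.

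To see which members varied together, deviations from the group means were correlated over the 24 libraries, in 76 relations among members and with marker lists of 6 cell types. Of these, 3 had a Benjamini-Hochberg adjusted p under 0.05 for Pearson's r, and 0 had it for both r and Spearman's rho. C1qa and C1qb gave r = 0.70 (permutation p = 0.00165, adjusted 0.0418) and rho = 0.65 (permutation p = 0.00484, adjusted 0.174). Within the experiments r was 0.49 (injection, 16 libraries) and 0.92 (self-administration, 8 libraries), and without the 2 farthest libraries it was 0.65. C1s and its inhibitor Serping1 gave r = 0.69 (permutation p = 0.00124, adjusted 0.0418) and rho = 0.67 (permutation p = 0.00258, adjusted 0.174). Within the experiments r was 0.75 and 0.44, and it was 0.64 without the 2 farthest libraries.

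Serping1 also followed the list of 7 fibroblast and mural cell genes (Col1a1, Col1a2, Dcn, Lum, Pdgfrb, Rgs5 and Acta2), with r = 0.72 (permutation p = 0.00152, adjusted 0.0418) and rho = 0.55 (permutation p = 0.0101, adjusted 0.174). Within the experiments r was 0.76 and 0.57, and without the 2 farthest libraries it dropped to 0.50. LPS-Saline replicate 4, the library with 7.96 FPKM of Serping1, had the highest mean of this list in its group (3.40 on the log2 scale, against 1.08 to 1.54 in the others). LPS-Saline replicate 1, with 0.503 FPKM, had the lowest. All 7 genes of the list were present, and the summed level ran from 30.9 to 89.6 FPKM in LPS-Saline and from 41.2 to 70.9 FPKM in Saline-Saline. The part of these cells in the Serping1 values was not tested.

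For C1qa, the list of 9 microglia genes gave r = 0.55 (permutation p = 0.00454, adjusted 0.0690) and rho = 0.53 (permutation p = 0.0123, adjusted 0.174). The other C1q chains followed this list less, with r = 0.47 for C1qb (adjusted permutation p = 0.231) and 0.05 for C1qc (adjusted 0.932). C1s gave r = 0.59 with the choroid plexus list (permutation p = 0.00364, adjusted 0.0690) and rho = 0.53 (adjusted 0.174). None of these passed the adjustment, and the choroid plexus value rested on 2 of the 6 genes of its list, Ttr and Kl. C3 gave r = 0.45 with the microglia list (adjusted permutation p = 0.443), and 0.53 in the injection experiment against 0.01 in the self-administration experiment.

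**Figure D3:**
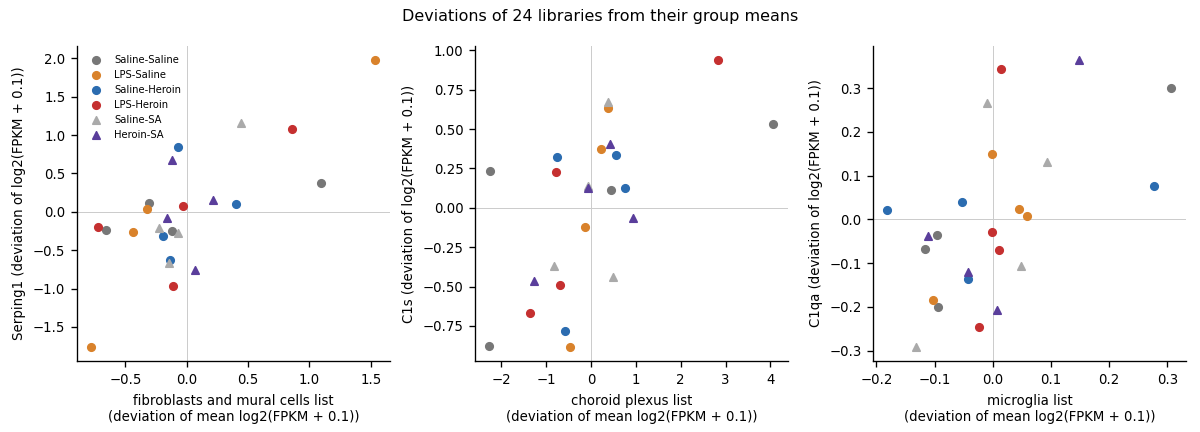
Deviations of 24 libraries from their group means, on the log2(FPKM + 0.1) scale, for Serping1 against fibroblast and mural cell genes (r = 0.72), C1s against choroid plexus genes (r = 0.59) and C1qa against microglia genes (r = 0.55). The choroid plexus value rests on 2 genes, Ttr and Kl. C1qb and C1qc, not drawn, gave r of 0.47 and 0.05 with the microglia genes. Circles are injection libraries and triangles self-administration libraries, and the 2 LPS-Saline libraries at the ends of the left panel are replicates 1 and 4.

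**Figure D4:**
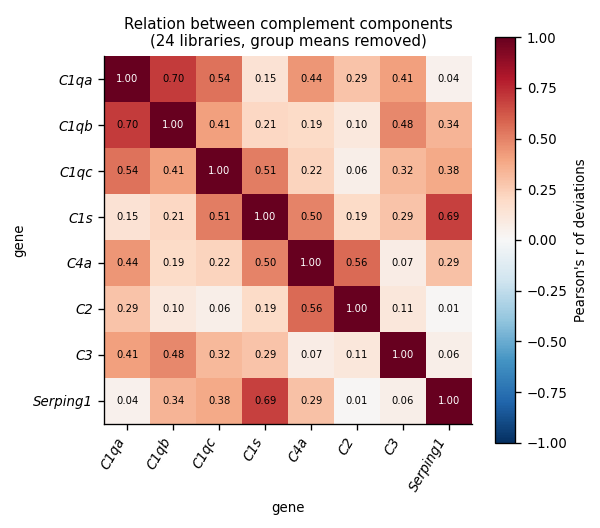
Pearson's r (colour and printed value) between the deviations of 8 complement components (both axes) from their group means in 24 libraries. C1qa with C1qb (0.70) and C1s with Serping1 (0.69) have the highest r, and Serping1 has r of 0.01 with C2 and 0.06 with C3.

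The genes whose levels were most like each member over the 24 libraries, by Pearson's r of log2 levels, are given as a description, since they include the differences between groups and experiments. C1qa was most like AABR07036920.1 (r = 0.64), Tyrobp (0.63), an adaptor of microglial receptors, and Abi3 (0.60). C1qb was most like Laptm5 (0.80), Fcer1g (0.76) and Pbx3 (0.74), and C1qc most like Tubg1 (0.73), Cyp4f4 (0.73) and RGD1305464 (0.69). The protease C1s was most like the matrix gene Fbn1 (0.81), its partner protease C1r (0.81) and Calml4 (0.80). Serping1 was most like the intermediate filament gene Vim (0.87), C1r (0.85) and Bdh2 (0.84).

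C3 was most like Csf1r (0.83), the receptor that sustains microglia, followed by Rdx (0.83) and Sh3glb1 (0.81). Within the experiments C3 and Csf1r gave 0.84 over the injection libraries and 0.22 over the self-administration libraries. C2 was most like Eif4g1 (0.90), Vti1a (0.88) and Mtdh (0.87), but in the 16 injection libraries alone these gave only 0.46, 0.43 and 0.18. The first C4a gene was most like AC119015.2 (0.75), AC126537.1 (0.73) and Trpt1 (0.65).

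The rest of the complement system was read from lists of 46 other genes. Of 10 initiation genes, 4 had a mean of at least 0.5 FPKM, led by the lectin pathway protease Masp1 (6.79 FPKM) and by C1r (2.64 FPKM). Of 3 alternative pathway genes, Cfp, which encodes properdin and stabilises the C3 convertase, stood at 14.1 FPKM and Cfd, which encodes factor D, at 1.14. Of 7 terminal genes, 6 were found by symbol and C5 was not. The terminal genes found were scarce, with 2 past that level, C8g (3.18 FPKM) and C7 (0.816). Of 16 regulators, 15 were found by symbol and Cd59b was not. Regulators were plentiful, with 12 past that level. They were led by Clu, which encodes clusterin (302 FPKM), and Cd59, an inhibitor of the membrane attack complex (66.4). Among 10 receptor genes, 7 passed, led by C1qbp, which encodes a C1q-binding protein (71.4 FPKM), and Itgb2, a chain of complement receptor 3 (2.41).

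Few of these genes were called. Of 27 tested in LPS-Saline and in Saline-Heroin against Saline-Saline, 0 were called, where 2.36 and 3.07% of all genes were. Of 26 tested, 0 were called in LPS-Heroin against Saline-Saline (5.42% of all genes), in LPS-Heroin against Saline-Heroin (2.2%), in the LPS main effect (1.77%) and in the interaction (2.31%). With so few genes tested, counts of 0 or 1 lie close to these backgrounds. Itgam, the other chain of complement receptor 3, was 1.77, 2.17, 1.83 and 1.84 FPKM in LPS-Saline and 1.43, 1.58, 0.831 and 1.39 in LPS-Heroin. Every LPS-Heroin library was below every LPS-Saline library, and Itgam was called lower (log2 fold change -0.54, unadjusted p = 0.0432, adjusted p = 0.977 in limma). It was 1 of 26 genes called in this comparison, where 2.29% of all genes were called and 2.58% did not overlap. Cd46, a regulator that helps degrade C3b and C4b, was 2.28, 1.24, 1.90 and 0.780 FPKM in Saline-SA and 3.04, 1.97, 2.44 and 2.68 in Heroin-SA. It was called higher, with overlapping groups (0.76, unadjusted p = 0.0396, adjusted p = 0.412 in limma), as 1 of 27 genes, against 5.44% of all genes.

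Colec11, a lectin that starts the lectin pathway, was called higher in the heroin main effect (0.60, unadjusted p = 0.0215, adjusted p = 0.559 in limma), as 1 of 26 genes, against 2.45% of all genes. It ran from 0.337 to 0.969 FPKM in the 8 injection libraries without heroin and from 0.646 to 1.69 FPKM in the 8 with heroin, with overlap. Between the saline groups of the experiments, C8g (-0.70), Itgam (-0.99) and Cd46 (-0.76) were called lower and C4bpb (0.76) higher in Saline-SA. C8g encodes a chain of a terminal component, and C4bpb a chain of the C4b-binding protein. This comparison called 22.7% of all genes.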

How the data were processed

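RNA-seq of the NAc was available for 24 libraries in 6 groups of 4, grouped by the labels. Per the labels and the study's methods, polyadenylated RNA was made into directional libraries, reads were trimmed with fastp, aligned with HISAT2 and counted with featureCounts on build rn6. Tool versions and the strand setting of the counting are not given in the sources used here. The authors deposited FPKM values for 32545 genes. Whole reads were recovered from these values to give depths.

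Groups were compared with limma 3.58.1 (R 4.3.3) on log2(FPKM + 0.1), over genes with a mean of at least 0.5 FPKM in the libraries fitted, with no covariate, and p-values were adjusted by Benjamini-Hochberg. Main effects and interaction used the 16 injection libraries. The limma fit was tested on simulated reads, in which changed genes had ample reads and calls used an adjusted p. Calls by unadjusted p and genes with few reads were not tested in this way. Each library is 1 rat. Exact permutation tests were two-sided, and correlations used 100000 permutations within groups (numpy 2.4.6, scipy 1.17.1).

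Named genes were the 9 symbols, other listed complement genes that were called or were the 2 most abundant of a list, and the 3 genes most like each member. The members, lists and rules were chosen with earlier results of these data known. Alternatives were a pseudocount of 1, no filter, quantile normalization, a fit of all libraries, a replicate block, leaving out each library and, added after the data were seen, limma-voom and the comparison of the saline groups. Promoters were searched in RefSeq sequences of GRCr8, and C4 promoters were aligned globally. The result of 1 listed gene is not reported here.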

Additional observations from a re-analysis of the deposited data

Results flagged for a closer look

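Serping1 stood at 6.29 FPKM in Saline-SA replicate 4, against 1.71 to 2.39 FPKM in the other 3 libraries of the group. Its gap to the next library was 0.852 of the range of the group, above the 95% limit of Dixon's test for 4 samples. Of 48 groups of 4 libraries examined over the 8 tested members this was the only value past the limit, and chance alone puts about 1 in 20 groups past it. In this library the mean of the 7 fibroblast and mural cell genes was 2.65 on the log2 scale, the highest of its group (1.98 to 2.14 in the others).

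Colec11 and Cd93 were called in the test of the difference between the self-administered and the injected heroin effect. Of 27 other complement genes tested, 1 was called higher and 1 lower, and neither passed adjustment. For Colec11, the self-administered minus the injected effect was -1.28 on the log2 scale (95% interval -2.35 to -0.21, unadjusted p = 0.0218, adjusted p = 0.721 in limma). Its log2 fold change was -0.62 in Heroin-SA against Saline-SA and 0.67 in Saline-Heroin against Saline-Saline. For Cd93, a transmembrane receptor, the difference was 0.91 (95% interval 0.0069 to 1.82, unadjusted p = 0.0485, adjusted p = 0.759 in limma), from 0.27 and -0.64. In this test 4.38% of all genes were called, and 0 had an adjusted p under 0.05.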

How the results depend on the processing

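Of 1474 values recomputed under alternatives, 1378 kept their direction and their side of the threshold, 17 crossed the threshold and 79 changed sign. The number of members called, 0 in the planned comparisons, became 1 under few settings. It was 1 in LPS-Saline against Saline-Saline with no filter (the second C2 gene), in LPS-Heroin against Saline-Saline (C4a) and LPS-Heroin against Saline-Heroin (C3) by limma-voom, and in the LPS main effect by limma-voom and with all 24 libraries in the fit (C3). With each library left out, it ran from 0 to 1 in LPS-Saline against Saline-Saline, LPS-Heroin against Saline-Saline, LPS-Heroin against Saline-Heroin and both main effects, and stayed at 0 in the other planned comparisons. In Saline-SA against Saline-Saline it ran from 1 to 2, and the replicate block gave 1, with C2 kept (-1.49) and C3 lost (-1.23, unadjusted p = 0.0584 in limma). The cause was not tested.

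Same-numbered libraries did not deviate together: in 0 of 15 pairs of groups was every correlation over 0.1, and the lowest and highest were -0.19 and 0.15. The replicate block changed no other count of members called.

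Changes of sign outside the left-out libraries were all close to 0: C2 in LPS-Heroin against LPS-Saline (-0.033 by quantile normalization, 0.0011 as reported), C3 in Heroin-SA against Saline-SA (-0.00051 with a pseudocount of 1) and Serping1 in Saline-SA against Saline-Saline (-0.010 by limma-voom). With each library left out in turn, log2 fold changes spanned 0 for the following. In LPS-Saline against Saline-Saline they ran for C1qa from -0.011 to 0.16, Serping1 from -1.13 to 0.12, C4a from -0.18 to 0.045, C1s from -0.36 to 0.23 and C2 from -0.20 to 0.073. In Saline-Heroin against Saline-Saline they ran for C1qa from -0.038 to 0.13, C1qc from -0.12 to 0.033 and C1s from -0.056 to 0.50. In LPS-Heroin against Saline-Saline they ran for Serping1 from -0.30 to 0.38, C3 from -0.12 to 0.61, C1s from -0.41 to 0.13 and C2 from -0.25 to 0.17. In LPS-Heroin against LPS-Saline they ran for C1qb from -0.10 to 0.035, C1qc from -0.19 to 0.031, Serping1 from -0.059 to 1.19, C1s from -0.34 to 0.20 and C2 from -0.17 to 0.25. In LPS-Heroin against Saline-Heroin they ran for C1qb from -0.12 to 0.013 and Serping1 from -0.66 to 0.021. In Heroin-SA against Saline-SA they ran for C1qa from -0.087 to 0.12, Serping1 from -0.47 to 0.14, C3 from -0.14 to 0.16 and C4a from -0.098 to 0.15. In the heroin main effect they ran for C1s from -0.040 to 0.22. In the LPS by heroin interaction they ran for C1qb from -0.0092 to 0.15, C1qc from -0.14 to 0.085, Serping1 from -0.42 to 0.83, C3 from -0.0045 to 0.78 and C1s from -0.58 to 0.030. In the self-administered minus injected heroin effect they ran for C1qa from -0.12 to 0.094. In Saline-SA against Saline-Saline they ran for C1qa from -0.15 to 0.043, Serping1 from -0.36 to 0.24 and C4a from -0.078 to 0.17.

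Over all genes, the count of calls rose by more than 1.5 times without the filter in LPS-Saline against Saline-Saline (581 against 357), LPS-Heroin against LPS-Saline (548 against 345), LPS-Heroin against Saline-Heroin (524 against 332), the LPS main effect (531 against 268), the heroin main effect (651 against 370) and the interaction (565 against 349), and fell with a pseudocount of 1 in the LPS main effect (175 against 268). Fits by edgeR and DESeq2 were not run. The deposited unit is FPKM, and limma-voom on the recovered reads was run in their place. Members with few reads (C2, C1s, C4b and the second C4a gene) are limited by depth, and the assignment of reads among the C4 genes and the overlapping C2 genes was not tested. With 4 libraries per group, no exact test can go below 0.0286.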
